A study of Homo sapiens with 9 samples.

Results

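The genes described here are 10 members of the BCL2 family, which sets whether a cell under stress keeps its mitochondria intact or dies by apoptosis. They were chosen by name as the core of that family: BCL2, BCL2L1 and MCL1, which protect the cell, BAX and BAK1, which open the mitochondrial outer membrane, and the BH3-only genes BBC3, PMAIP1, BCL2L11, BID and BAD, which set the other members off. They were read through the 15 probes of the array that carry a RefSeq transcript of 1 of these genes, of 42405 gene probes in all, and they are 10 of the 21813 genes tested. All 15 probes were well above background on all 9 arrays, so all 10 genes passed the filter on dim probes in every group.

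RNA was taken from A2780 cells, a line of human ovarian carcinoma, after 24 h in culture with DIG-MSK, an analogue of the antitumour antibiotic mithramycin that binds GC-rich DNA. The 3 groups were untreated cells (0 nM), cells given 8 nM and cells given 80 nM of the compound, with 3 biological replicates each, and the cells carried no engineered change. Each sample was hybridised to 1 single-colour array, so that 9 arrays gave the level of each transcript. The study asked which genes the compound turns up or down at a lower and at a higher concentration.

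BCL2, BCL2L1 (which encodes BCL-xL) and MCL1 hold the effectors BAX and BAK1 in check by binding them or the BH3-only proteins. When BH3-only proteins outweigh this guard, BAX and BAK1 form pores in the mitochondrial outer membrane and cytochrome c leaks out and starts the caspases. BBC3 (PUMA) and PMAIP1 (NOXA) are known to be governed mainly through transcription. BID, BCL2L11 (BIM) and BAD are also governed by cleavage, turnover or phosphorylation of the protein, and BAX by its move from the cytosol to mitochondria. Such steps leave no trace in RNA, and only RNA was measured here.

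A level is a processed intensity divided by the 75th percentile of its array and put on the log2 scale, so a level of 0 is as bright as that percentile. Probes differ in how brightly they report a transcript, so levels were compared between groups and not between probes. Where probes of a gene were subtracted within an array, only the shift of that difference between groups has a meaning. Calls followed the threshold of the study's methods (1.5-fold or more up, or 0.67-fold or less, with a p under 0.05, taken here as unadjusted) and, separately, an adjusted p under 0.05 in limma with Benjamini-Hochberg adjustment over all 21813 genes. The words rose and fell are used only for the latter. Untreated and 8 nM arrays shared slide 1 and scan 1 while all 80 nM arrays lay on slide 2 and scan 2, so at 80 nM the compound and the slide cannot be told apart.

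The stretches of DNA just before the transcription start are shown for the genes whose levels moved most: BAX and BBC3, which rose at 8 nM, and PMAIP1 and BCL2L11, which changed most at 80 nM. Each is 250 bases long and ends at the base before the start, and is read 5′ to 3′ on the strand of the gene (RefSeq sequence, GRCh38.p14). Capitals mark GGGCGG, the GC box that Sp1 binds, CACGTG, an E-box, and TGACGT, the core of a CRE, on either strand. BAX lies at chr19:48954625-48954874 (plus strand), BBC3 at chr19:47232668-47232917 (minus strand), PMAIP1 at chr18:59899746-59899995 (plus strand) and BCL2L11 at chr2:111120664-111120913 (plus strand). The annotated BBC3 gene reaches to position 47232860, so the BBC3 window precedes an inner start and lies partly within the gene.
BAX: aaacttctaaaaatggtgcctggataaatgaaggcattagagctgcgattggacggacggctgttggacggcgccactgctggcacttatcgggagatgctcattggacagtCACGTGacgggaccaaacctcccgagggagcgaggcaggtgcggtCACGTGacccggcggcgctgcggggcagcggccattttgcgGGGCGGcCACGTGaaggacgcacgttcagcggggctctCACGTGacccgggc
BBC3: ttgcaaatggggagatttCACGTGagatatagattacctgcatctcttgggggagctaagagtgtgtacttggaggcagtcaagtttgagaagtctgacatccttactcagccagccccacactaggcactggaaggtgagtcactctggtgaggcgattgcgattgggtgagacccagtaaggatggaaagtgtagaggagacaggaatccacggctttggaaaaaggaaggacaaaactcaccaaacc
PMAIP1: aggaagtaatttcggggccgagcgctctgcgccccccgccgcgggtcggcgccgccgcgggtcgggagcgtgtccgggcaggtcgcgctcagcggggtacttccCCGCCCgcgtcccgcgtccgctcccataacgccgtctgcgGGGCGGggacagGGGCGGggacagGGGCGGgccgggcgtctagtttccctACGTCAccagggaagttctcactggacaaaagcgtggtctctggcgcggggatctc
BCL2L11: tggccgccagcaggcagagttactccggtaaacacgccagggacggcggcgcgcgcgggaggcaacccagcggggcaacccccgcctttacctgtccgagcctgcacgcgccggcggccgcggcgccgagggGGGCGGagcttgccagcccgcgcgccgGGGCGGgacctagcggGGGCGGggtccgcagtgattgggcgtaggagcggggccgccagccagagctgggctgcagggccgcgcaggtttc

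The 4 windows differed. The BAX window held 4 matches to CACGTG and 1 to GGGCGG. Of all 35116 windows of this length in the table, 6.34% held CACGTG at all, and 5 windows held 4 or more. The BBC3 window held 1 CACGTG and no GC box. PMAIP1 had 4 matches to GGGCGG and 1 to TGACGT, and BCL2L11 had 3 to GGGCGG. At least 1 GGGCGG was present in 42.6% of all windows, 3 or more were present in 13.9%, and TGACGT was present in 7.1%. GC content was 62.8% for BAX, 49.2% for BBC3, 72.8% for PMAIP1 and 76.8% for BCL2L11, against a median of 58% over all windows.

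Of the 10 genes, 9 were in the promoter table, with 15 windows. GGGCGG was found in at least 1 window of 6 of them (BAX, BAK1, PMAIP1, BCL2L11, BID and BAD), where 46.2% of the 27305 genes in the table had such a window. CACGTG was found for 3 of them (BAX, BBC3 and BID), against 7.73% of genes, and TGACGT for 2 (PMAIP1 and BAD), against 8.62%. Only 1 pair of matches in these 15 windows overlapped. Of the 6 genes that held GGGCGG, BAX, PMAIP1 and BID fell at 80 nM, and BAK1 and BAD did not pass. BCL2L11 rose by its representative probe and fell by another. Of the genes in the table without GGGCGG, BCL2 rose at 80 nM, and BCL2L1 and BBC3 did not pass. A link between the motif and the direction was not tested. A match is a run of letters and was not tested as a binding site.

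The arrays were alike in brightness but not in the signal of their negative controls. The mean net signal of these controls was 31.1 to 38.6 on untreated and 8 nM arrays and 22.1 to 22.7 on 80 nM arrays. This difference runs with both the slide and the concentration. The 75th percentile of the intensity ranged from 831.7 to 1170, the number of probes well above background from 24800 to 27123, and no gene probe was saturated. Correlations between arrays of a group lay between 0.9891 and 0.9957. Of 8 epithelial and ovarian carcinoma markers, KRT8, KRT18, KRT19 and EPCAM were well above background on all 3 untreated arrays, whereas CDH1, WT1 and MUC16 were so on no array. Among markers of other cells, 1 of 3 leukocyte genes (PTPRC), 0 of 2 endothelial genes and 2 of 2 fibroblast genes (PDGFRB and DCN) were well above background in untreated cells. In RNA from whole cultures, fewer cells of a kind and less RNA per cell cannot be told apart.

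**Figure D1:**
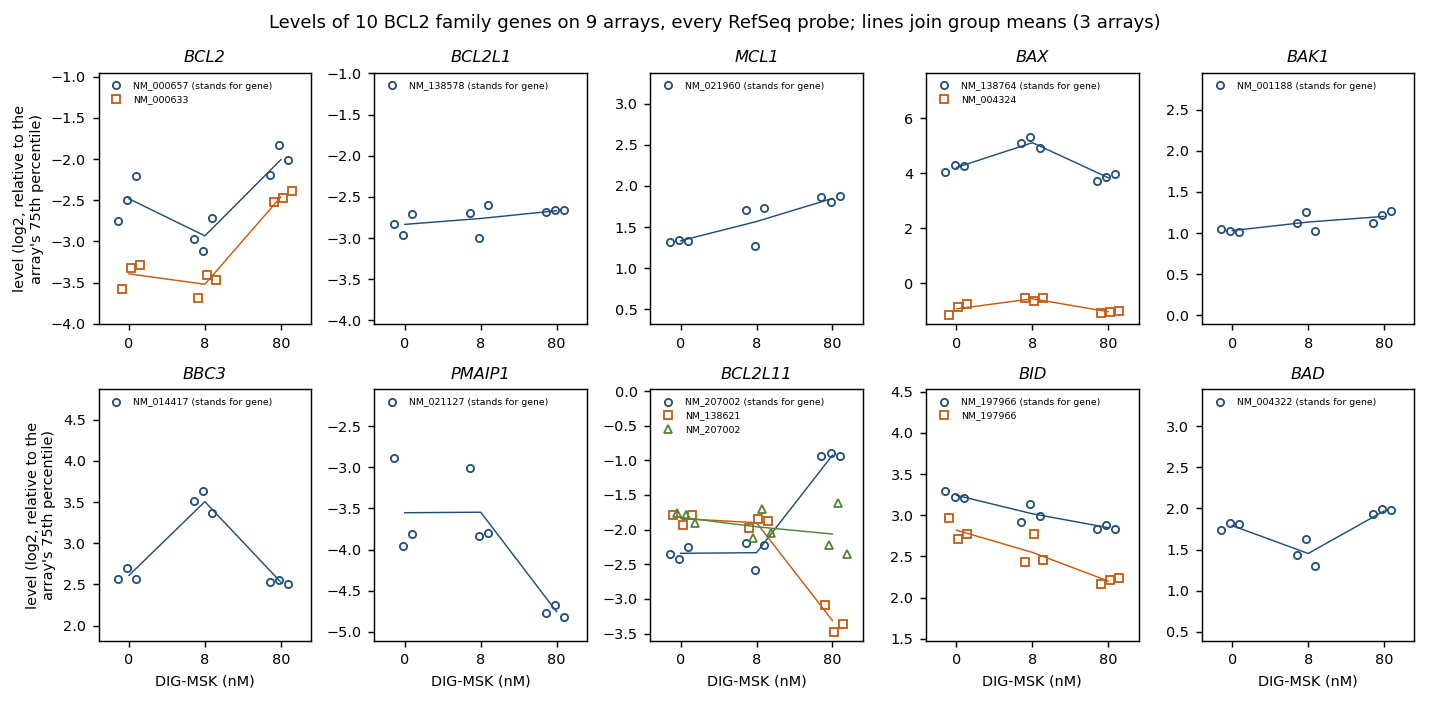
Levels of the 10 BCL2 family genes on each of the 9 arrays, as log2 relative to the 75th percentile of the array, against the DIG-MSK concentration in nM. Each symbol is 1 probe on 1 array, lines join the means of 3 arrays, and the symbol shape marks the probe, named by its RefSeq transcript. BAX (NM_138764) and BBC3 stood highest at 8 nM, and the BCL2L11 probes parted at 80 nM.

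At 8 nM the effector BAX and the BH3-only gene BBC3 rose to nearly the same degree, BAD fell slightly, and the other 7 genes did not pass the test. By the 1.5-fold rule 2 of 10 genes were called, both up, where 7.09% of all genes were called (4.25% up and 2.84% down). By the adjusted p 3 of 10 passed, 2 up and 1 down, where 13.6% of all genes passed (7.92% up and 5.72% down). The median change of the 10 genes was 0.04 on the log2 scale and that of all genes was −0.06.

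BAX, the effector that moves from the cytosol to mitochondria during apoptosis, had levels of 4.06, 4.29 and 4.28 on the untreated arrays, 5.09, 5.32 and 4.94 at 8 nM and 3.71, 3.85 and 3.96 at 80 nM. All 8 nM arrays stood above all untreated arrays, and all 80 nM arrays stood below them. The rise at 8 nM was 0.90 on the log2 scale (SE 0.12, adjusted p = 0.0026 in limma), or 1.87-fold. In size this was larger than the change of 96.8% of the genes tested. The probe (NM_138764) has 10 spots on each array, and the SD between its spots ranged from 0.042 to 0.092. A second BAX probe, for NM_004324, gave −1.17, −0.86 and −0.76 in untreated cells and −0.53, −0.64 and −0.53 at 8 nM. Its groups did not overlap either, but its difference of 0.37 (SE 0.11) missed the threshold (adjusted p = 0.058 in limma). The first probe gained 0.54 on the second within the same arrays, a value that a scaling by 1 factor per array leaves as it is, and the exact permutation test gave p = 0.1, the smallest that 3 against 3 arrays allow.

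BBC3, the BH3-only gene PUMA whose protein binds every pro-survival member, had levels of 2.56, 2.70 and 2.56 in untreated cells, 3.51, 3.63 and 3.37 at 8 nM and 2.53, 2.55 and 2.51 at 80 nM. The 8 nM arrays lay apart from the other 6, which spanned a narrow range. BBC3 rose 1.86-fold at 8 nM, a log2 change of 0.90 (SE 0.083, adjusted p = 0.000504 in limma). At 80 nM it was −0.08 from the untreated level (SE 0.083, adjusted p = 0.42 in limma).

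BAD, which binds BCL2 and BCL-xL when it is not phosphorylated, had levels of 1.74, 1.82 and 1.81 in untreated cells, 1.43, 1.63 and 1.30 at 8 nM and 1.94, 1.99 and 1.98 at 80 nM. The 8 nM arrays were the lowest 3 of the 9 and did not overlap with either other group. BAD fell 1.26-fold at 8 nM (log2 change −0.34, SE 0.089, adjusted p = 0.040 in limma). With the replicate number as a block the adjusted p was 0.0613, and 0.135 when the 80 nM arrays were left out as well. The call was kept in 6 of 12 other settings and in 1 of 9 fits that left out 1 array, that without 8 nM replicate 2.

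Groups that did not overlap between 8 nM and untreated arrays were found for 4 of the 10 genes (BAX and BBC3 up, BID and BAD down), where 34.3% of all genes showed this (15.8% up and 18.5% down). BID, whose cleaved form carries the signal from death receptors to mitochondria, had levels of 3.30, 3.22 and 3.21 in untreated cells and 2.92, 3.14 and 2.99 at 8 nM. Its difference of −0.22 (SE 0.075) missed the threshold (adjusted p = 0.085 in limma). MCL1 gave 1.71, 1.27 and 1.73 at 8 nM against 1.32, 1.35 and 1.33, and replicate 2 alone lay below the untreated arrays. Without that array, the MCL1 difference was 0.39 with an adjusted p of 0.0052, that of BID was −0.29 with an adjusted p of 0.020, and 5 members passed in place of 3.

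**Figure D2:**
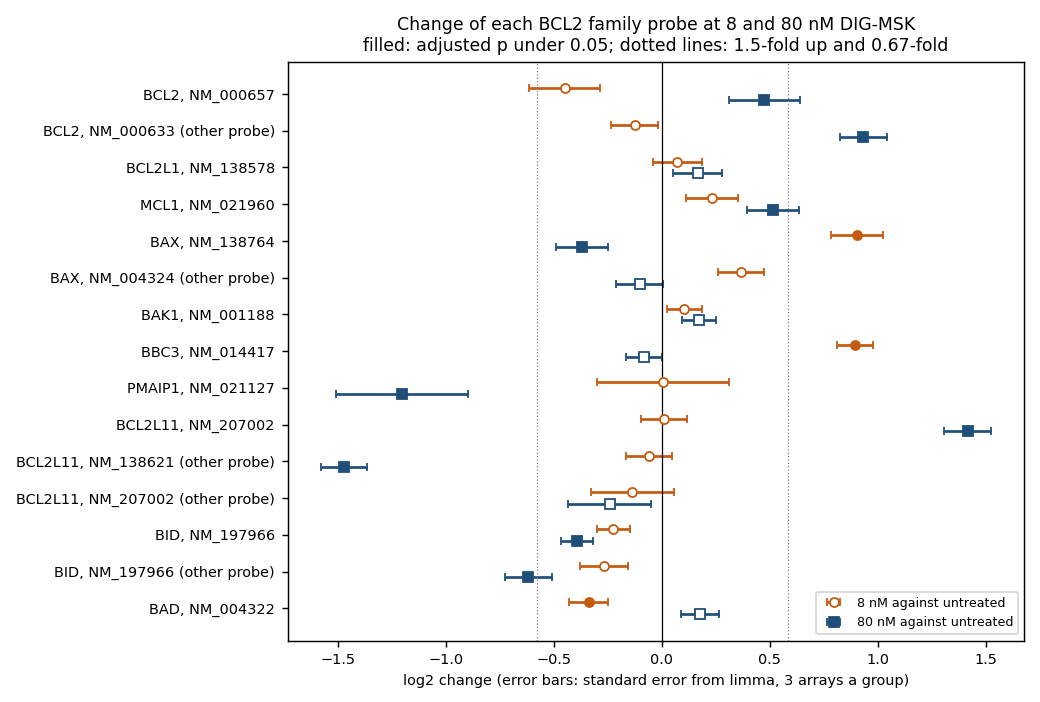
Log2 change of each of the 15 probes at 8 nM (circles) and at 80 nM (squares) against untreated cells, with the standard error from limma over 3 arrays a group. Filled symbols have an adjusted p under 0.05, and dotted lines mark the 1.5-fold and 0.67-fold limits. BAX and BBC3 stood at 0.90 at 8 nM, while PMAIP1 and BCL2L11 showed the widest changes at 80 nM.

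At 80 nM the pattern was another one. The pro-survival genes BCL2 and MCL1 rose, BAX, BID and PMAIP1 fell, and BCL2L11 rose by its representative probe but fell by another. By the 1.5-fold rule 2 of 10 genes were called, BCL2L11 up and PMAIP1 down, where 35.1% of all genes were called (18.8% up and 16.3% down). By the adjusted p 6 of 10 passed, 3 in each direction, where 59% of all genes passed (33.3% up and 25.7% down). All 10 genes had untreated and 80 nM arrays that did not overlap, 6 higher and 4 lower, and 72% of all genes did so (40.3% higher and 31.7% lower). The median size of the change was 0.38 over the 10 genes and 0.42 over all genes.

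With a scaling to the 10 spike-in probes, the median over all genes at 80 nM went from 0.08 to −0.20, a shift of −0.28 on the log2 scale, and for 80 nM against 8 nM by −0.36. Relative to the median of all genes, which such a shift does not alter, the 80 nM values were 0.40 for BCL2, 0.44 for MCL1, −0.45 for BAX, −1.28 for PMAIP1, 1.34 for BCL2L11 and −0.47 for BID. Under the spike-in scaling itself PMAIP1, BCL2L11, BID and BAX kept their calls and directions, whereas BCL2 (0.19, adjusted p = 0.65 in limma) and MCL1 (0.23, adjusted p = 0.56) did not pass. The small differences of BCL2L1, BAK1 and BAD, none of which passed, turned from positive to negative under it.

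Among the genes that protect the cell, BCL2, the founding member of the family, had levels of −2.75, −2.49 and −2.21 in untreated cells, −2.97, −3.12 and −2.71 at 8 nM and −2.19, −1.82 and −2.01 at 80 nM by the probe for NM_000657. The 80 nM arrays were the highest, although the lowest of them was close to untreated replicate 3. BCL2 rose 1.39-fold (log2 change 0.47, SE 0.17, adjusted p = 0.036 in limma). Its call was lost without untreated replicate 1 (0.34, adjusted p = 0.12), untreated replicate 2 (0.47, adjusted p = 0.082), 80 nM replicate 2 (0.38, adjusted p = 0.11) or 80 nM replicate 3 (0.48, adjusted p = 0.079), and with no filter on dim probes (adjusted p = 0.069).

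The other BCL2 probe, for NM_000633 and with 10 spots, gave −3.57, −3.33 and −3.28 in untreated cells, −3.69, −3.40 and −3.47 at 8 nM and −2.52, −2.47 and −2.39 at 80 nM. The 80 nM arrays were well apart from the other 6. This probe rose 1.91-fold (log2 change 0.93, SE 0.11, adjusted p = 0.000142 in limma), and it passed in all 9 other settings run on it and in all 9 fits that left out 1 array. The probes thus agreed in direction and differed in size, by 0.46 within the same arrays (exact permutation p = 0.1, the smallest possible).

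MCL1, a short-lived protein whose level follows its synthesis closely, had levels of 1.32, 1.35 and 1.33 in untreated cells and 1.86, 1.81 and 1.87 at 80 nM. Arrays of these groups lay within a very narrow range and the groups were clearly apart, whereas the 8 nM arrays (1.71, 1.27 and 1.73) were more spread. MCL1 rose 1.43-fold (log2 change 0.51, SE 0.12, adjusted p = 0.0064 in limma). BCL2L1 had levels of −2.83, −2.96 and −2.71 in untreated cells, −2.690, −3.001 and −2.595 at 8 nM and −2.68, −2.66 and −2.66 at 80 nM. The 8 nM group overlapped both others and the 80 nM arrays lay just above the untreated ones, and neither concentration gave a change past the threshold (differences of 0.07, adjusted p = 0.69, and 0.17, adjusted p = 0.24, in limma).

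Of the effectors, BAX fell 1.29-fold at 80 nM against untreated cells (log2 change −0.37, SE 0.12, adjusted p = 0.028 in limma). That call was lost without untreated replicate 2 (−0.33, adjusted p = 0.086), untreated replicate 3 (−0.33, adjusted p = 0.085), 80 nM replicate 1 (−0.30, adjusted p = 0.094) or 80 nM replicate 2 (−0.38, adjusted p = 0.062). It was also lost when the BAX probes were averaged (−0.24, adjusted p = 0.068) and with no filter on dim probes (adjusted p = 0.056), and the second BAX probe differed by only −0.10 (adjusted p = 0.43). BAK1, which sits in the mitochondrial membrane before any signal, stayed between 1.02 and 1.27 on all 9 arrays. It differed from untreated cells by 0.10 and 0.17 at the lower and higher concentration, with adjusted p = 0.41 and 0.096 in limma.

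PMAIP1, the BH3-only gene NOXA that targets MCL1, had levels of −2.89, −3.96 and −3.80 in untreated cells, −3.01, −3.83 and −3.80 at 8 nM and −4.78, −4.67 and −4.82 at 80 nM. Replicate 1 stood higher than the other replicates in both the untreated and the 8 nM group, and all 80 nM arrays were below all others. PMAIP1 fell 2.30-fold at 80 nM (log2 change −1.20, SE 0.31, adjusted p = 0.0095 in limma), and the change lay between −1.41 and −0.87 when 1 array was left out. Its 80 nM levels were the lowest of all member probes. The dimmest signal well above background on those 80 nM arrays was at −5.98, −6.07 and −5.68. With the normexp background correction the PMAIP1 change was −0.44 and missed the threshold (adjusted p = 0.068). At 8 nM its difference from untreated cells was 0.01 (SE 0.31, adjusted p = 0.99).

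BCL2L11 encodes BIM, which occurs in several spliced forms and binds all pro-survival members. The probe that stands for the gene, for NM_207002, gave −2.35, −2.42 and −2.25 in untreated cells, −2.20, −2.58 and −2.22 at 8 nM and −0.94, −0.90 and −0.94 at 80 nM. The first 6 arrays were mixed and the 80 nM arrays were far above them. This probe rose 2.67-fold at 80 nM (log2 change 1.42, SE 0.11, adjusted p = 1.42e-05 in limma). It had the highest mean over 9 arrays, and so stood for the gene, only through its 80 nM level, since its untreated mean (−2.34) was below those of the other BCL2L11 probes (−1.84 and −1.82). The rise of BCL2L11 in the counts of calls therefore rests on a probe chosen partly by that rise.

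A second BCL2L11 probe, for NM_138621, moved the other way. Its levels were −1.79, −1.93 and −1.79 in untreated cells, −1.98, −1.84 and −1.88 at 8 nM and −3.09, −3.47 and −3.37 at 80 nM, so that the 80 nM arrays were far below the rest. It fell 2.77-fold (log2 change −1.47, SE 0.11, adjusted p = 1.07e-05 in limma). The remaining probe, again for NM_207002 but with 1 spot per array, gave −1.76, −1.79 and −1.91 in untreated cells and −2.23, −1.62 and −2.35 at 80 nM. The groups of this probe overlapped and its difference was −0.24 (SE 0.19, adjusted p = 0.31 in limma), so the probes that share a transcript record did not move alike.

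Within each array, the first BCL2L11 probe minus the second was −0.56, −0.49 and −0.46 in untreated cells, −0.21, −0.73 and −0.35 at 8 nM and 2.16, 2.57 and 2.42 at 80 nM. The 80 nM arrays stood far apart from the other 6. The shift was 2.89 on the log2 scale at 80 nM (exact permutation p = 0.1, the smallest possible) and 0.07 at 8 nM (p = 0.8). When the 3 probes were averaged, the change of BCL2L11 at 80 nM turned to −0.10 (adjusted p = 0.28). The array gives the direction of each probe, not of BIM as a whole.

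BID fell at 80 nM by both of its probes, which carry the same transcript (NM_197966). The first, which stands for the gene, has 1 spot on each array and the second has 2. The first gave 3.30, 3.22 and 3.21 in untreated cells and 2.83, 2.88 and 2.83 at 80 nM, and the second gave 2.97, 2.71 and 2.77 against 2.16, 2.21 and 2.23. Neither probe had overlapping groups, and the 8 nM arrays lay in between or overlapped with one side. The falls were −0.39 (SE 0.075, adjusted p = 0.0022 in limma) and −0.62 (SE 0.11, adjusted p = 0.0016). BID was called in all 11 other settings and in all 9 fits that left out 1 array. BAD at 80 nM stood 0.18 above untreated cells and did not pass (SE 0.089, adjusted p = 0.12).

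**Figure D3:**
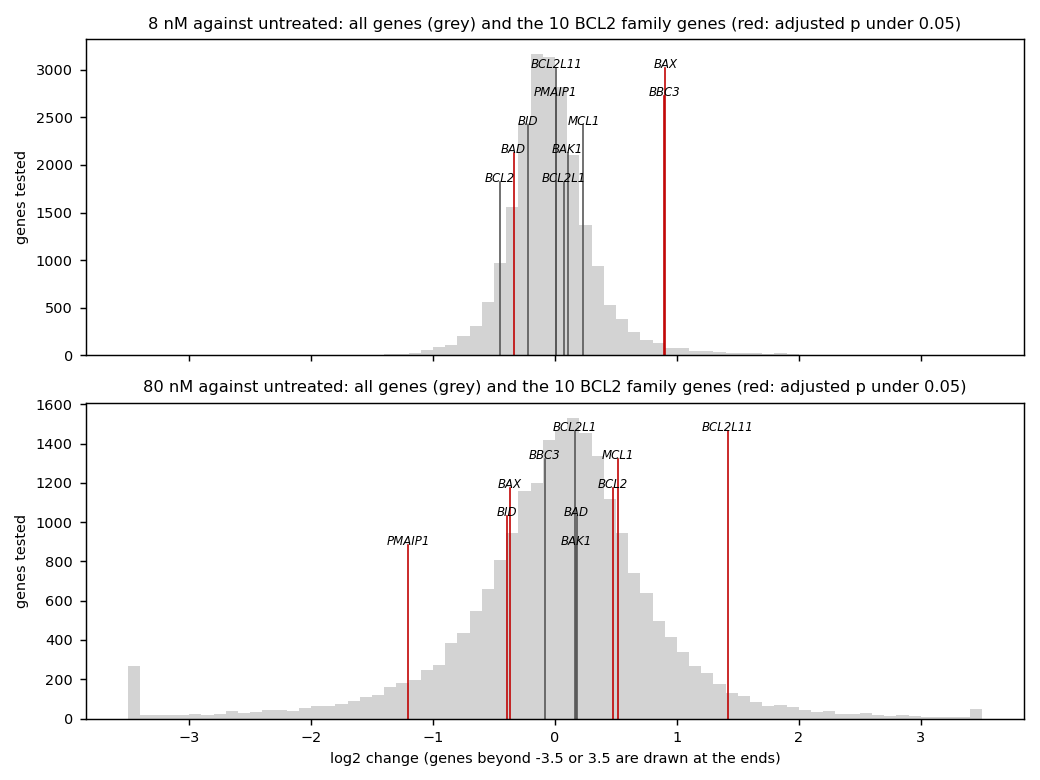
Number of genes tested (grey bars) by log2 change at 8 nM and at 80 nM against untreated cells, with the 10 BCL2 family genes as vertical lines, red where the adjusted p is under 0.05. The heights of the lines only separate the names. BAX and BBC3 lay in the upper tail at 8 nM, and at 80 nM BCL2L11 and PMAIP1 lay on opposite flanks of a wider distribution.

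The treated groups were also compared with each other. Against 8 nM, the 80 nM arrays were lower for BAX (−1.27, SE 0.12, adjusted p = 5.28e-05 in limma, 2.42-fold lower), BBC3 (−0.98, SE 0.083, adjusted p = 2.86e-05, 1.97-fold lower) and PMAIP1 (−1.21, SE 0.31, adjusted p = 0.0095). They were higher for BCL2 (0.92, SE 0.17, adjusted p = 0.0017), BAD (0.52, SE 0.089, adjusted p = 0.0014) and the representative BCL2L11 probe (1.41, SE 0.11, adjusted p = 1.60e-05). Thus 6 of 10 genes passed, where 57.5% of all genes passed (34.6% up and 22.9% down). By the 1.5-fold rule 5 of 10 were called (BCL2 and BCL2L11 up, BAX, BBC3 and PMAIP1 down), where 33.6% of all genes were (19.4% up and 14.2% down). Groups that did not overlap were seen for 8 of 10 genes, 4 up and 4 down, against 64.9% of all genes (39.3% up and 25.5% down). The median size of the difference was 0.72 over the 10 genes and 0.41 over all genes.

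For BAX and BBC3 the difference between the concentrations held in every setting run. Over 11 other settings it lay between −1.63 and −0.87 for BAX and between −1.33 and −0.91 for BBC3, and both passed in all of them and in all 9 fits that left out 1 array. The differences of BCL2 (0.57, adjusted p = 0.16) and BAD (0.16, adjusted p = 0.60) did not pass under the spike-in scaling, and that of PMAIP1 did not with normexp (−0.47, adjusted p = 0.052). The slide differed between these groups too.

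**Figure D4:**
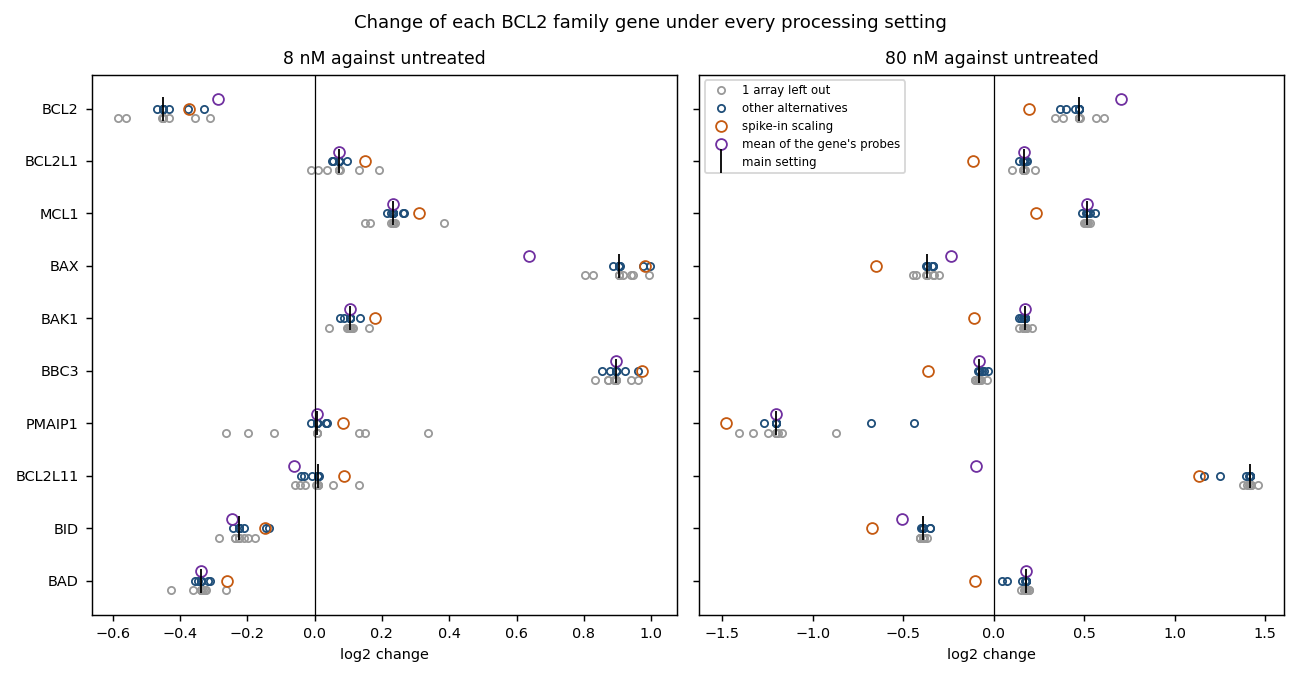
Log2 change of each of the 10 genes at 8 nM and at 80 nM against untreated cells under every processing setting, with the value of the main setting as a black bar. Grey circles leave out 1 array, orange circles use the spike-in scaling, purple circles the mean of the probes of a gene and blue circles the remaining settings. BAX and BBC3 stayed at 0.64 or above at 8 nM throughout. BCL2L11 at 80 nM went to −0.10 when its probes were averaged, while the other settings all used its representative probe. Its NM_138621 probe, not drawn here, fell (−1.47) and passed in all 9 other settings run on it.

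The genes around the family were read from a list of 41 genes by role, of which 39 were tested. Each is given by its representative probe alone. Some, such as FAS and MDM2 with 3 probes each, have further probes on the array, which were not compared. At 8 nM 8 of the 39 rose and none fell, where 7.92% of all genes rose and 5.72% fell. At 80 nM 12 rose and 10 fell, where 33.3% of all genes rose and 25.7% fell. The 12 include BCL2L10, which entered the test only through its 80 nM arrays. The 10 include BIK, which was well above background on only 1 of the 3 arrays at 80 nM. TNFRSF10A and BCL2L14 did not pass the filter on dim probes.

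Of the other BH3-only genes, BMF, which encodes a protein tethered to the cytoskeleton in healthy cells, rose at both concentrations (log2 change 1.05, SE 0.11, and 2.00, SE 0.11). BIK, an activator at the endoplasmic reticulum, rose at 8 nM (0.81). Its fitted difference at 80 nM was −0.47, but there its probe was well above background on only 1 of 3 arrays. HRK fell at 80 nM (−0.94). All 3 of these genes passed at 80 nM, 1 up and 2 down with BIK counted, where 33.3% of all genes rose and 25.7% fell.

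Among the other pro-survival and effector genes, 0 of 4 passed the adjusted p in limma at 8 nM, where 13.6% of all genes passed. An unadjusted p under 0.05 was found for BCL2L2, and for BCL2L10, whose signal was not above background in either group. BCL2L2 (BCL-W) rose at 80 nM (0.39, or 0.11 under the spike-in scaling) and BCL2A1 (BFL-1) fell (−0.51), while BOK gave 0.21 and did not pass. BCL2L10 was not well above background on any untreated or 8 nM array and was so on all 3 arrays at 80 nM. Set against the dimmest signal well above background, it was at least 3.94-fold higher at 80 nM than in untreated cells, but it entered the test only through its 80 nM arrays, so this is a description. Of the BCL2-related genes, 5 of 6 were tested and 3 fell at 80 nM, where 25.7% of all genes fell. They were BNIP3, a mitophagy receptor (−1.78), BNIP3L (−0.29) and BCL2L13 (−1.02).

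Of the genes that act after the mitochondrial pore, 0 of 7 passed the adjusted p in limma at 8 nM, where 13.6% of all genes passed. An unadjusted p under 0.05 was found for 1 of them (APAF1). At 80 nM CYCS, which encodes cytochrome c, rose (0.31, or 0.030 under the spike-in scaling), while the initiator caspase CASP9 fell (−0.68). APAF1, DIABLO, HTRA2, VDAC1 and VDAC2 did not pass at either concentration.

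Upstream of BID, the death receptors FAS and TNFRSF10B rose at both concentrations. FAS had log2 changes of 1.66 (SE 0.092) at 8 nM and 2.10 (SE 0.092) at 80 nM, and TNFRSF10B, which encodes a TRAIL receptor, had 0.45 and 0.27, the latter turning to −0.0051 under the spike-in scaling. The adaptor FADD fell at 80 nM (−0.39). CASP8, the caspase that cleaves BID, gave 0.73 at 80 nM with an SE of 0.36 and did not pass.

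Among 9 regulators, MDM2, a ubiquitin ligase, rose by 1.41 at 8 nM and by 0.25 at 80 nM (−0.029 under the spike-in scaling), a difference between the concentrations of −1.15 (adjusted p = 9.54e-06 in limma). FBXW7, which marks MCL1 for degradation, rose at both (0.78 and 0.69). FOXO3, a transcription factor that drives BCL2L11 and BBC3, fell at 80 nM (−0.45). ATF4, DDIT3, TRIB3, TP73, HUWE1 and USP9X passed at neither concentration.

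The 14-3-3 genes, whose proteins hold phosphorylated BAD away from mitochondria, gave 2 rises at 8 nM and 4 rises and 1 fall at 80 nM among 7 tested, where 7.92% of all genes rose at 8 nM and 33.3% rose and 25.7% fell at 80 nM. SFN (14-3-3 sigma) rose at 8 nM (1.14) and differed by 0.24 at 80 nM, which did not pass. YWHAH rose at both (0.32 and 0.52), YWHAB (0.31), YWHAQ (0.38) and YWHAZ (0.50) rose at 80 nM, and YWHAE fell (−0.44). Under the spike-in scaling the 80 nM values were 0.24 for YWHAH, 0.027 for YWHAB, 0.097 for YWHAQ, 0.22 for YWHAZ and −0.72 for YWHAE.

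**Figure D5:**
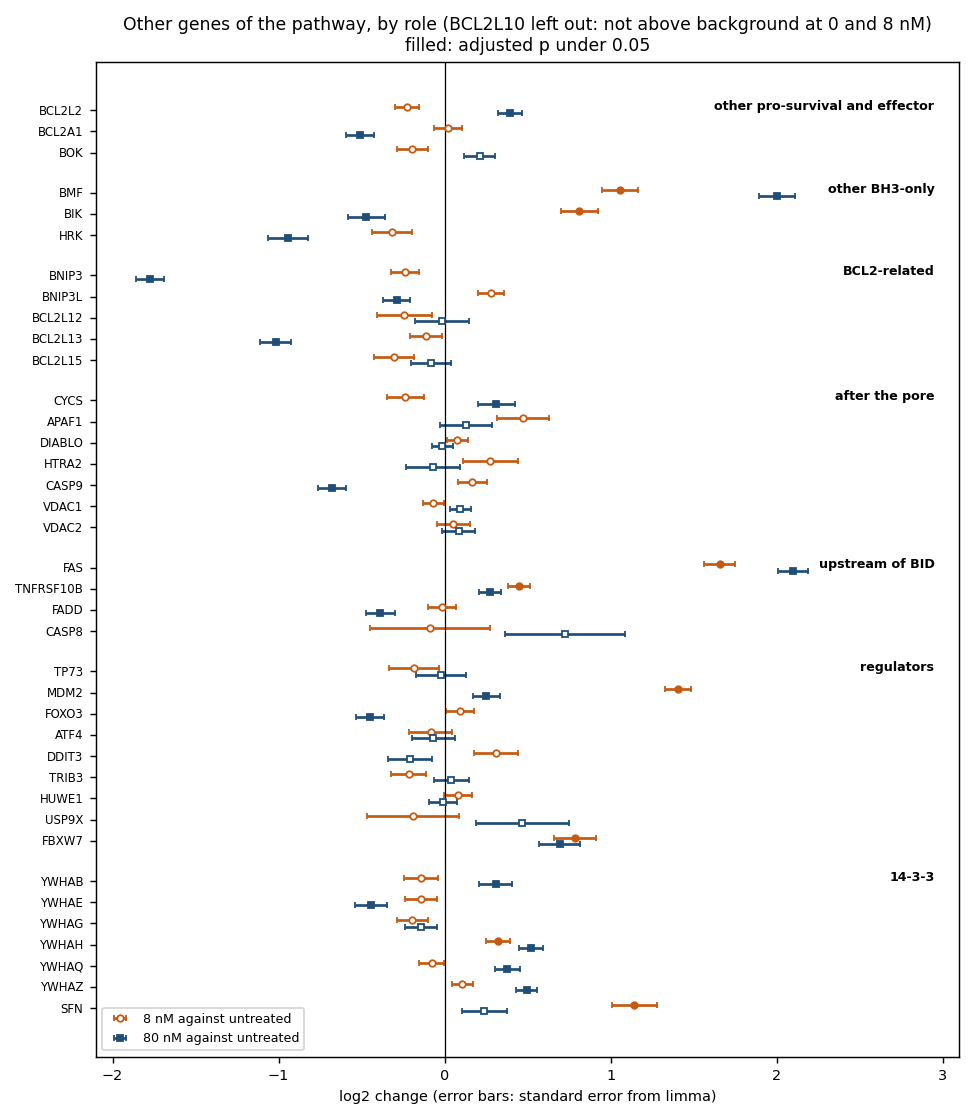
Log2 change of 38 tested genes around the BCL2 family, grouped by role, at 8 nM (circles) and 80 nM (squares) against untreated cells, with the standard error from limma. Filled symbols have an adjusted p under 0.05. All filled circles lie to the right of 0, among them FAS at 1.66 and MDM2 at 1.41, and filled squares lie on both sides.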

How the data were processed

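Gene expression was measured on single-colour (Cy3) Agilent arrays, 1 per sample, and groups and replicate numbers were taken from the submitters' labels. The study's methods and the labels name different labeling kits. The deposited spot intensities come from Feature Extraction 10.7.3.1, with which the authors read their scans and subtracted background. The lowess step that the methods name was not repeated on these single-colour intensities. A deposited table of log2 values by the authors followed the unsubtracted median signal of the spots (r at least 0.998) with almost equal quantiles on all arrays (column medians 6.60 to 6.61). The table was used as an alternative only.

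Processed intensities were divided by the 75th percentile of their array and put on the log2 scale. Controls and outlier-flagged spots were dropped, and the spots of a probe were averaged. A probe was kept if some group had it well above background on each of its 3 arrays (26433 probes), and the probe of highest mean level stood for its gene. RefSeq (GRCh38.p14) named 25711 of the 27245 probes that carry a RefSeq accession. The 9 arrays were fitted together by limma 3.58.1 under R 4.3.3 (lmFit, contrasts.fit, eBayes), with Benjamini-Hochberg adjustment over 21813 genes. The procedure was tested on simulated data. Tables were made with Python 3.11.15, pandas 2.3.3 and numpy 2.4.6. No depth can be given for arrays, and the number of arrays limits the precision.

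All 10 members and all their RefSeq probes are named, and genes of the wider list are named where the adjusted p passed at either concentration, with others named to complete a role. Some genes of that list are not reported here and are left out of its counts. The members and lists were chosen with earlier results of these data known. The settings varied were the background correction (normexp, offset 50, on the median signal, since the files hold no mean signal), quantile, median and spike-in scaling, the authors' table, other filters and probe rules, only the arrays compared, the replicate number as a block, and leaving out each array.

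Deviations from the group means correlated weakly between same-numbered untreated and 8 nM arrays (0.1135, 0.1012 and 0.1624). Between differently numbered arrays of these groups the correlations lay between −0.1236 and −0.0031. Correlations of like size were found between differently numbered 8 nM and 80 nM arrays (0.118 and 0.1252). The data therefore do not settle whether the numbers pair the samples. Between same-numbered arrays that involve 80 nM the correlations lay between −0.1238 and 0.0156. This does not settle the pairing there either, since the slide differed as well.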

Additional observations from a re-analysis of the deposited data

How the results depend on the processing

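Over the 10 genes and their probes, settings other than leaving out an array kept direction and side of the threshold in 437 cases, lost it in 18, gained it in 9 and changed sign in 16. BAX and BBC3 at 8 nM passed in all 12 settings (0.64 to 1.00 and 0.85 to 0.97) and without each array (0.80 to 0.99 and 0.83 to 0.96). The number of members passing the adjusted p at 8 nM was 3, or 2 with the replicate block, where BAD was lost (adjusted p = 0.0613). The block over untreated and 8 nM arrays alone was chosen after seeing the data (BAD, adjusted p = 0.135). At 80 nM the replicate block changed no call against untreated cells, and against 8 nM it moved the second BID probe (−0.35) to an adjusted p of 0.052. The number called by the 1.5-fold rule at 80 nM was 2, but 1 with normexp and 4 with spike-in scaling. The cause was not tested.

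Signs changed only for small differences and for BCL2L11. At 8 nM these were PMAIP1 with median scaling (−0.011), BCL2L11 with normexp (−0.032), median scaling (−0.0083), the authors' values (−0.041) and the mean of its probes (−0.063), and its NM_138621 probe with spike-in scaling (0.017). At 80 nM against untreated, they were BCL2L1 (−0.11), BAK1 (−0.11) and BAD (−0.10) with spike-in scaling and BCL2L11 with the mean of its probes (−0.099). Against 8 nM, they were BCL2L1 (−0.26), MCL1 (−0.077) and BAK1 (−0.29) with spike-in scaling, BCL2L11 with the mean of its probes (−0.037), and its 1-spot probe with normexp (0.040) and the authors' values (0.038). Leaving out 1 array moved the number passing between 2 and 5 at 8 nM (5 without 8 nM replicate 2) and between 4 and 8 at 80 nM, and changed the sign at 8 nM of BCL2L1 (−0.012 to 0.19), PMAIP1 (−0.26 to 0.34) and BCL2L11 (−0.059 to 0.13), and against 8 nM of BCL2L1 (−0.025 to 0.18) and the 1-spot BCL2L11 probe (−0.33 to 0.037).

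Over all genes, the 1.5-fold rule called 927 up and 619 down at 8 nM, against 448 and 300 with normexp, 1204 and 326 with spike-in scaling, 1046 and 454 with quantile scaling, 614 and 291 in the authors' values, 1175 and 1032 with no filter and 689 and 397 with probes well above background on all 9 arrays. At 80 nM it called 4099 up and 3556 down, against 2400 and 2352 with normexp and 2219 and 5721 with spike-in scaling, and against 8 nM 4241 and 3091, which became 2304 and 2001 with normexp and 1741 and 5864 with spike-in scaling. By the adjusted p, the 7266 up and 5601 down at 80 nM became 1813 and 5051 with spike-in scaling, and the 7556 and 4996 against 8 nM became 1298 and 5120. By the adjusted p, 1727 and 1248 passed at 8 nM, against 347 and 26 with spike-in scaling, 1182 and 608 with no filter on dim probes, 1035 and 486 with only the arrays compared, and 621 and 171 with the block on those arrays. Leaving out 1 array moved these between 1109 and 1922 up and between 539 (without untreated replicate 3) and 2008 down (without 8 nM replicate 2), and the 1.5-fold calls down between 464 and 1119 (without 8 nM replicate 1).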

Other observations

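The genes with patterns most like BAX and BCL2L11, the members of largest change at 8 nM and at 80 nM, were sought among 13958 genes by Pearson's r over the 9 arrays, as a description, since the arrays of a group share a treatment and a slide. For BAX they were MAP3K10 (r = 0.994), PTPRU (0.991), FCSK (0.987), CASTOR3P (0.985) and TTBK1 (0.981). PTPRU, a receptor tyrosine phosphatase, had log2 changes of 0.93 at 8 nM and −0.36 at 80 nM, where BAX had 0.90 and −0.37. For the representative BCL2L11 probe they were PEA15, which encodes a protein that binds FADD and CASP8 (r = 0.997), GPR62 (0.997), SLC38A11 (0.997), LRFN5 (0.997) and DDX46 (0.996). Their log2 changes at 80 nM ran from 0.53 for DDX46 to 4.37 for SLC38A11, and at 8 nM all 5 lay between −0.07 and 0.04.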
